A study of Drosophila melanogaster with 12 samples.

Results

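The fourth chromosome of Drosophila, also called the dot chromosome, is the smallest autosome of the fly and carries only a small set of protein-coding genes. It is packaged largely as heterochromatin, with the heterochromatin protein HP1a and the methyltransferase egg (SETDB1) spread over its gene-rich part, and yet its genes are expressed at ordinary levels. A chromosome-specific protein, Pof, which paints the fourth chromosome, binds its transcripts and raises their output, so that the chromosome is one of the few autosomal regions known to be regulated as a whole. Many of its genes act in neurons and in eye development, among them the Pax6 homologs ey and toy, the Pax2 homolog sv and several ligands and receptors of neurons.

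The deposited gene table held 15423 genes, of which 104 were assigned to chromosome 4. Genes were taken when at least 10 reads were counted in 3 or more of the 12 libraries. Of the 104, 18 fell short of that minimum, and a further 14 were set aside by symbol, since they encode ribosomal, ATP synthase, translation initiation or dpr proteins, carry a CR name given to non-coding genes, or are unc-13. This left 72 genes, 31 on the plus strand and 41 on the minus strand, and all 72 entered the test. At the edge of the count minimum, fuss was kept with 10 or more reads in 4 libraries (2 to 15 reads), and CG32006 was not kept (1 to 8 reads). For 69 of the 72, every library held at least 10 reads. The other arms gave 1507 genes on X, 1606 on 2L, 1896 on 2R, 1771 on 3L and 2275 on 3R by the same count and symbol rules.

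RNA came from heads of wild-type control flies (WT) and of ADAR hypomorph flies, which carry an allele with lowered function of the RNA editing enzyme Adar. The methods name the hypomorph stock Adar5G1, and the study describes a transposon inserted in an Adar intron. Flies of each strain were raised at 18°C or 29°C and collected 3 to 6 days after eclosion, and 3 libraries were made per group by 3' RNA-seq, which reads the fragments next to the poly(A) tail. The labels name no further allele, no sex and no genetic background for the control, so a strain difference covers everything by which these stocks differ.

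Total counts were 4409119 to 8806472 per library, and levels below are CPM values, reads relative to a library size scaled by the TMM method. Each group has a library with no number in the table and libraries numbered 2 and 3, and values are given in that order. Adar itself had 40.1, 40.9 and 35.2 CPM in WT at 18°C against 37.6, 22.5 and 28.0 CPM in the hypomorph, and 37.2, 39.5 and 42.2 against 24.6, 23.5 and 21.6 CPM at 29°C. It was lower in the hypomorph at 18°C (log2 fold change -0.41, SE 0.14, adjusted p = 0.0424, edgeR's quasi-likelihood test) and at 29°C (-0.77, SE 0.14, adjusted p = 0.000858), but the hypomorph library without a number at 18°C lay within the WT range. That library was also the shallowest. Cyp6a17 and beat-Ib, which separated the strains, had 0 reads in it, as in the other hypomorph libraries at 18°C, against 67 to 262 reads in WT. These genes were chosen with earlier results of these data known, so their 0 reads are no independent check of its label. The counts of genes called at 18°C against WT or against 29°C are given with and without this library.

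Head tissue markers also differed between the strains. At 18°C the summed level of 4 photoreceptor markers (ninaE, ninaC, trp, Arr2) was 22175 to 22622 CPM in the hypomorph and 5815 to 6479 CPM in WT, and that of 4 neuron markers (elav, nSyb, Syt1, brp) was 430 to 459 and 349 to 357 CPM. The 5 fat body markers (Yp1, Yp2, Yp3, Fbp1, Lsp2) summed to 20653 to 31878 CPM in the hypomorph and 97145 to 105513 CPM in WT. At 29°C the photoreceptor sums were 30270 to 32347 against 9805 to 10743 CPM, the neuron sums 527 to 543 against 381 to 435 CPM and the fat body sums 44731 to 51784 against 79545 to 83357 CPM. With an adjusted p under 0.05, only 2 of the 4 neuron markers were higher in the hypomorph at 18°C and 1 at 29°C. Of 4 glia markers (repo, Eaat1, Gs2, nrv2) 3 and 2 were higher. Of 4 muscle markers (Mhc, Act88F, up, Mlc2) 2 were lower at 18°C and 3 higher at 29°C. In whole heads, fewer cells of a type and less RNA per cell cannot be told apart. Of the fat body markers, Yp1, Yp2 and Yp3 encode yolk proteins, which are sex-biased, and the labels name no sex. The share of females in each group is thus not known. The part of these marker shifts in the results on the 72 genes was not tested.

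Most of the 72 genes had moderate levels. Their mean level over the 12 libraries ran from 1.16 CPM for fuss to 2165 CPM for Rfabg, with a median of 36.4 CPM, against 18.2 CPM for all 9553 genes tested. In 55 genes the mean lay between 10 and 100 CPM, 9 genes were below and 8 above that range. Rfabg (apolpp in Release 6), which encodes the apolipoprotein of the fly's main lipid carrier, lipophorin, made up 25.6 to 46.3% of the summed level of all 72, and the next most abundant gene, ND-49, a subunit of mitochondrial complex I, had a mean of 251.9 CPM. With Rfabg, the summed level was 6628 ± 111 CPM in WT and 5465 ± 26.4 CPM in the hypomorph at 18°C (SD, n = 3). Without Rfabg the order turned, with 3639 ± 73.0 CPM in WT and 3920 ± 153 CPM in the hypomorph. At 29°C the sums without Rfabg were 3282 ± 90.3 and 3388 ± 28.4 CPM. As a share of all counts, the 72 genes took 0.639 to 0.653% in WT and 0.589 to 0.639% in the hypomorph at 18°C, and 0.524 to 0.549% and 0.490 to 0.505% at 29°C.

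The first question was how the 72 genes differed between the strains at 18°C. By edgeR's quasi-likelihood test with an adjusted p under 0.05, 22 of the 72 (30.6%) were higher in the hypomorph and 3 (4.17%) were lower, while over all 9553 genes 11.6% were higher and 14.6% were lower. On the other arms, 9.90% (3L) to 15.8% (X) of the genes were higher and 12.1% (3L) to 16.4% (2R) were lower. In both directions together 25 were called (34.7%, against 26.2% of all genes). The median log2 fold change of the 72 was 0.15, against 0.01 over all genes and 0.00 to 0.04 on the other arms, and 54 of the 72 had a value above 0 (51.4% of all genes). The changes were small: 8 of the 22 reached a log2 fold change of 0.5, and 9 of the 72 reached it in either direction (12.5%, against 14.1% of all genes). By the study's rule, a log2 fold change over 1 with an unadjusted p under 0.05, only sv passed (5.51% of all genes). In 28 genes every hypomorph library was above every WT library (18.8% of all genes), and in 5 every hypomorph library was below (19.5%).

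Without the hypomorph library that has no number, 13 of the 72 were higher and 3 lower (8.57% and 12.5% of all genes), all 16 among the 25, and the median of the 72 minus that of all genes was 0.14, as it was with all 12 libraries (0.14). The 9 members with a log2 fold change of 0.5 or more in either direction all kept their calls without it, from 0.41 for onecut to 1.26 for sv and -0.90 for Rfabg. In the 8 numbered libraries alone, 9 of the 72 were higher and 2 lower (6.99% and 10.3% of all genes).

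The member with the largest difference at 18°C was sv. This gene, the Pax2 homolog that acts in cone cells of the eye and in sensory bristles, had 2.85, 4.2 and 3.05 CPM in WT and 10.3, 6.96 and 9.33 CPM in the hypomorph, a log2 fold change of 1.38 (SE 0.25, adjusted p = 0.000599, edgeR's quasi-likelihood test). Ekar, the eye-enriched kainate receptor, a glutamate-gated channel of photoreceptors, had 10.3, 14.8 and 12.7 CPM in WT and 25.4, 20.9 and 20.4 CPM in the hypomorph (0.80, SE 0.15, adjusted p = 0.00111). toy, a Pax6 homolog upstream of eye development, had 34.6, 33.6 and 31.7 CPM in WT and 55.8, 45.1 and 46.4 CPM in the hypomorph (0.56, SE 0.09, adjusted p = 0.000362). In each of these genes all hypomorph libraries were above all WT libraries. The 4 photoreceptor markers were all higher in the hypomorph as well, and their part in these differences was not tested.

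Of the 3 TGF-beta ligands of the chromosome, mav and Actbeta were also higher. mav (maverick) had 21.0, 23.2 and 20.4 CPM in WT and 37.4, 30.9 and 41.2 CPM in the hypomorph (0.76, SE 0.11, adjusted p = 6.82e-05). Actbeta had 20.4, 14.8 and 18.6 CPM in WT and 33, 28.2 and 27.2 CPM in the hypomorph (0.71, SE 0.12, adjusted p = 0.000501). The groups did not overlap in either gene. The remaining ligand, myo (myoglianin), overlapped between the strains, with 34.3 to 39.5 CPM in WT and 35.4 to 37.3 CPM in the hypomorph.

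**Figure D1:**
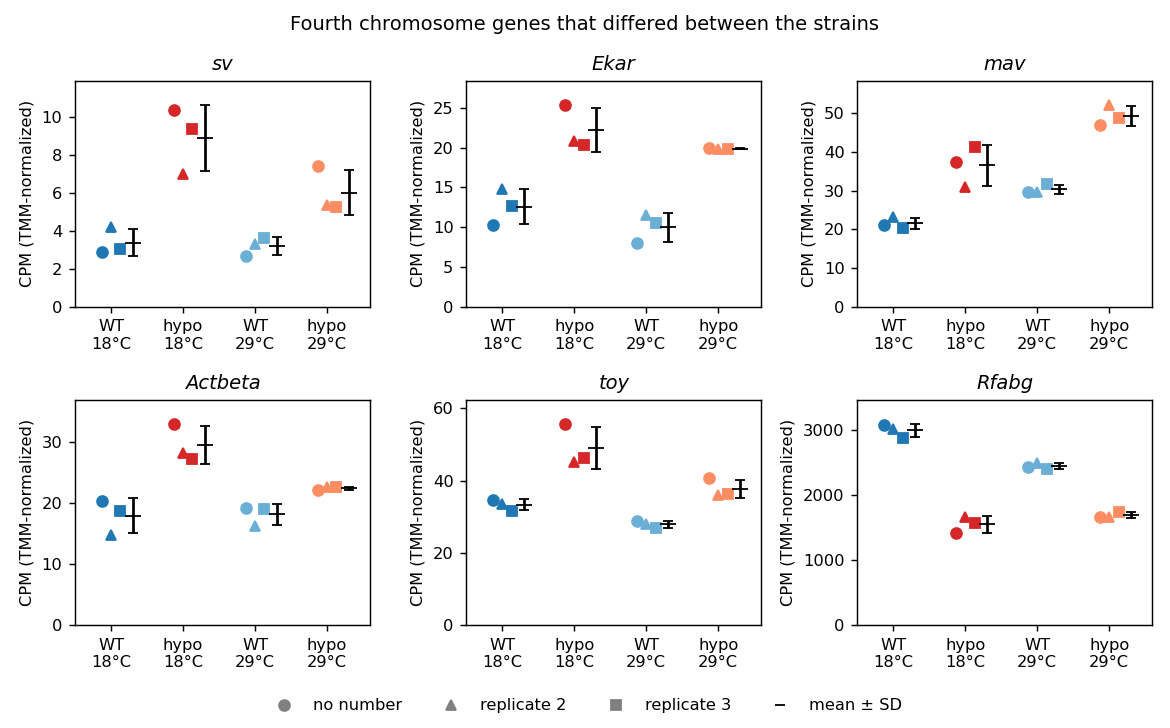
Level in CPM (y axis, from 0, linear) of sv, Ekar, mav, Actbeta, toy and Rfabg in each of the 12 libraries, by strain and temperature (x axis). Points are libraries, with marker shape for the library number, and bars are the mean and SD of 3 libraries. At 18°C the hypomorph points lie above the WT points in the first 5 genes and below them in Rfabg, at 1407 to 1665 CPM against 2877 to 3076 CPM.

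Asator, a tau-tubulin kinase, dati, a zinc finger factor, and onecut, a cut-homeodomain factor of photoreceptors and neurons, completed the members with a rise of 0.5 or more. Asator had 24.8, 26.4 and 31.4 CPM in WT and 41.0, 42.5 and 36.1 CPM in the hypomorph (0.52, SE 0.11, adjusted p = 0.00204). dati had 16.9, 25.4 and 21.5 CPM in WT and 32.2, 30.6 and 29.5 CPM in the hypomorph (0.52, SE 0.14, adjusted p = 0.00942), and onecut 26.3, 24.3 and 26.2 CPM against 41.7, 34.9 and 33.5 CPM (0.51, SE 0.10, adjusted p = 0.000988). The strains did not overlap in any of the 3. Asator and a partner on the other strand, pncr013:4, share exon bases in the Release 6 annotation, and pncr013:4 itself was at 14.0 to 17.5 CPM in WT and 14.6 to 15.2 CPM in the hypomorph.

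Only 3 members were lower in the hypomorph at 18°C. Rfabg had 3076, 3015 and 2877 CPM in WT and 1407, 1665 and 1564 CPM in the hypomorph, a fall of 1.93-fold (log2 fold change -0.95, SE 0.06, adjusted p = 1.17e-08, edgeR's quasi-likelihood test). Rfabg is made in the fat body, and all 5 fat body markers were lower as well, by the sums given above. CG32850 (Rnf11, a RING finger protein) had 116, 136 and 120 CPM in WT and 91.7, 92.1 and 96.6 CPM in the hypomorph (-0.41, SE 0.08, adjusted p = 0.00161). The small GTPase Arf102F (Arf4) had 122, 124 and 109 CPM against 98.3, 94.9 and 98.1 CPM (-0.28, SE 0.07, adjusted p = 0.00566). The strains did not overlap in any of the 3 genes, and in all of them WT was the higher.

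The calls were then counted by role, in lists of 6 to 14 genes, beside the 30.6% higher and 4.17% lower among the 72 and the 11.6% and 14.6% among all genes. Of the 14 transcription factors and coactivators 5 were higher at 18°C and none lower: sv, toy, dati, onecut and pan, the TCF factor of Wingless signaling (0.35, adjusted p = 0.0378). The Hedgehog factor ci (-0.12, adjusted p = 0.527) and the other Pax6 homolog, ey (-0.20, adjusted p = 0.511), did not pass the test. Of the 8 genes for axon guidance, adhesion and secreted signals, mav, Actbeta and the semaphorin receptor PlexB (0.40, adjusted p = 0.0308) were higher. Its relative PlexA did not pass (0.22, adjusted p = 0.0935), nor did the receptor Eph (0.01) or its ligand Ephrin (-0.06).

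Among the 8 genes of synapse, excitability and vesicles, 3 were higher and none lower: Ekar, Cadps and Syt7. Cadps, which primes dense-core vesicles for release, had 54.6, 63.1 and 65.0 CPM in WT and 101, 74.2 and 84.4 CPM in the hypomorph (0.50, SE 0.11, adjusted p = 0.00265), and the vesicle calcium sensor Syt7 had 38.8, 36.7 and 40.3 CPM against 50.9, 50.3 and 47.0 CPM (0.35, adjusted p = 0.00529). The hypomorph libraries were again all above the WT libraries. The median of these 8 genes was 0.33, the largest of the 6 role lists, and the neuron and photoreceptor marker sums moved the same way.

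Of the 8 kinases, GTPases and adaptors, Asator, Crk (0.26), PIP4K (0.23) and Slip1 (0.44) were higher and Arf102F was lower. Among 6 genes of RNA, chromatin and DNA repair only Hcf, host cell factor, passed, with 20.8, 21.5 and 23.3 CPM in WT and 28.7, 29.1 and 29.5 CPM in the hypomorph (0.41, adjusted p = 0.00408). The Argonaute partner gw (0.13, adjusted p = 0.166) and the repair factor Rad23 (-0.09, adjusted p = 0.576) did not pass. In the last list, of 6 metabolic, mitochondrial and structural genes, Rfabg was lower and the focal adhesion protein Zyx was higher, at 59.7, 43.9 and 49.8 CPM against 37.7, 36.3 and 36.9 CPM (0.46, adjusted p = 0.00369). Rfabg and Zyx lie on opposite strands, share exon bases in Release 6 and moved in opposite directions. Of the 22 members in no list, 5 were higher (bip2, CaMKII, CG11155, CG1909 and CG32000, by 0.25 to 0.40) and 1, CG32850, was lower.

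At 29°C fewer of the 72 genes differed between the strains, 7 higher and 3 lower in the hypomorph, or 9.72% and 4.17% against 8.81% and 10.2% of all genes, or 10 in both directions together (19.0% of all genes). The median log2 fold change was 0.07, against -0.00 over all genes and -0.02 to 0.02 on the other arms, and 50 of the 72 were above 0 (49.5% of all genes). None passed the study's rule (4.72% of all genes). In 17 genes every hypomorph library was higher (17.5% of all genes) and in 6 every one was lower (18.4%). The count of higher genes was thus close to that of the genome. Without the WT library or the hypomorph library that has no number at 29°C, 6 were called in place of 10 (14.8% and 14.3% of all genes). In each of these fits 4 were higher in place of 7, where 6.65% and 6.42% of all genes were higher.

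Ekar had the largest rise at 29°C, with 7.97, 11.5 and 10.5 CPM in WT and 19.99, 19.86 and 19.83 CPM in the hypomorph (0.99, SE 0.15, adjusted p = 0.000224, edgeR's quasi-likelihood test). sv had 2.66, 3.29 and 3.61 CPM against 7.38, 5.34 and 5.27 CPM (0.90, SE 0.24, adjusted p = 0.0162), and this call was lost without the unnumbered WT library (adjusted p = 0.0673) or the unnumbered hypomorph library (adjusted p = 0.0892). mav had 29.6, 29.8 and 31.8 CPM against 47.0, 52.1 and 48.8 CPM (0.70, SE 0.10, adjusted p = 0.000106). Rfabg was again lower, with 1658, 1658 and 1737 CPM in the hypomorph and 2426, 2495 and 2400 CPM in WT (-0.53, SE 0.06, adjusted p = 7.75e-06). In all 4 genes the strains did not overlap at either temperature.

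In all, 8 of the 72 genes passed at both temperatures, as did 1250 of the 9553 genes tested. Each of the 8 had the same direction at both, as did 1222 of the 1250: sv, Ekar, mav, toy, onecut and CG11155 higher, Rfabg and CG32850 lower. A further 17 of the 72 passed at 18°C alone and 2 at 29°C alone (1251 and 568 of the 9553). The GABA transporter Gat, at 40.3 to 52.4 CPM in WT and 55.2 to 57.6 CPM in the hypomorph (0.30, adjusted p = 0.0243), and CG33521, at 43.1 to 45.0 and 36.9 to 38.4 CPM (-0.22, adjusted p = 0.0408), passed only at 29°C. At 18°C these values were 0.12 (adjusted p = 0.331) and -0.06 (adjusted p = 0.642). Neither gene passed the test of the difference between temperatures. The strain values at the temperatures came from different libraries, and their signs matched in 56 of 72 genes (77.8%, against 69.3% of all genes). Across the 72 genes Pearson's r was 0.64 and Spearman's rho was 0.50, against 0.63 and 0.54 over all genes, where genes are not independent replicates.

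**Figure D2:**
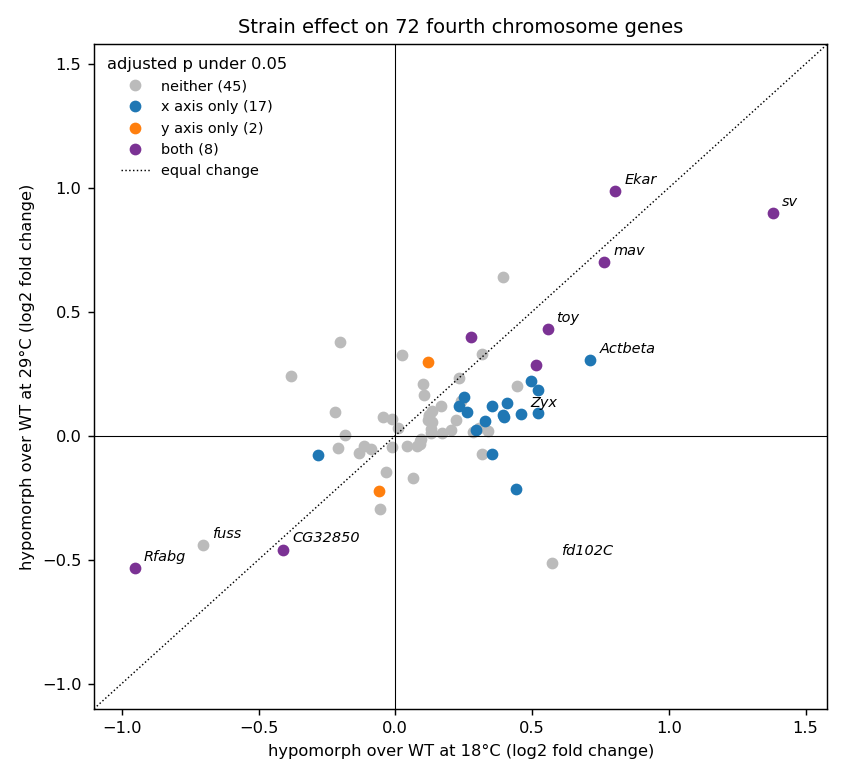
Log2 fold change of hypomorph over WT at 18°C (x axis) and at 29°C (y axis) for the 72 genes, 1 point each, coloured by where the adjusted p was under 0.05, with a dotted line of equal change. Of the 72, 8 passed at both temperatures, 17 at 18°C alone and 2 at 29°C alone. The 17 lie mostly to the right of 0 and below the dotted line. Choosing genes that passed at 18°C alone itself favours a larger change at 18°C than at 29°C.

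The rise at 18°C was not gathered in 1 stretch of the chromosome. Ordered by their place in the Release 6 annotation and cut into 3 stretches of 24, from PlexB to lgs, CaMKI to fd102C and CG11148 to Cadps, 7, 7 and 8 genes were higher and the median log2 fold changes were 0.13, 0.13 and 0.23. The longest run of neighbours above 0 held 9 genes, from CG1909 to CG11360, and includes onecut, mav and Ekar. Among the 72 genes, 23 share exon bases with another annotated gene, all 23 with a gene on the opposite strand and 1 of them also with a gene on the same strand. Whether the counting used strand is not given in the sources used here, so in these 23 genes reads of the partners may not be fully apart. sv and Cals are such a pair, and Cals had no strain difference at 18°C that passed (0.08, adjusted p = 0.507).

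**Figure D3:**
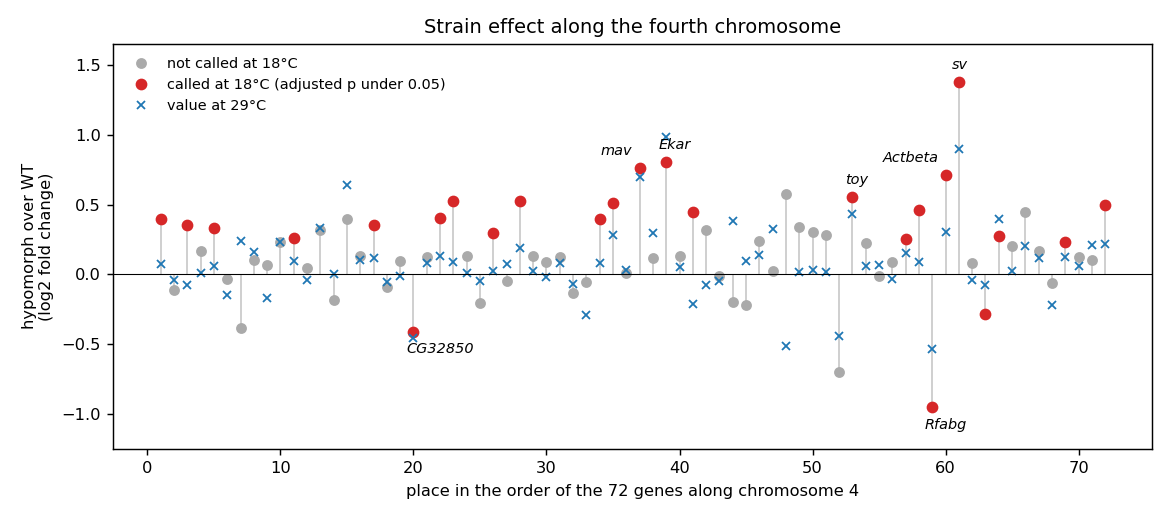
Log2 fold change of hypomorph over WT (y axis) by place in the order of the 72 genes along chromosome 4 (x axis, ranks and not distances). Filled points are values at 18°C, red where the adjusted p was under 0.05, and crosses are values at 29°C. The 22 red points above 0 are spread over the whole order, with Rfabg and sv, in places near the end, at -0.95 and 1.38.

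To see whether single libraries carried the rise, each gene's log2 CPM was set against its own mean over the 12 libraries, and the median of the 72 deviations was taken relative to that of all genes. The 3 hypomorph libraries at 18°C had 0.12 to 0.22, the WT libraries at 18°C -0.06 to 0.03, the hypomorph libraries at 29°C -0.06 to -0.01 and the WT libraries at 29°C -0.15 to -0.05. The group means were 0.17 ± 0.05, -0.02 ± 0.04, -0.04 ± 0.02 and -0.10 ± 0.05 in that order (SD, n = 3). Thus all 3 hypomorph libraries at 18°C, not just the one without a number, lay above every other library. The medians of the other arms stayed between -0.02 and 0.04, though each rests on 1500 or more genes and is therefore steadier than one over 72.

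**Figure D4:**
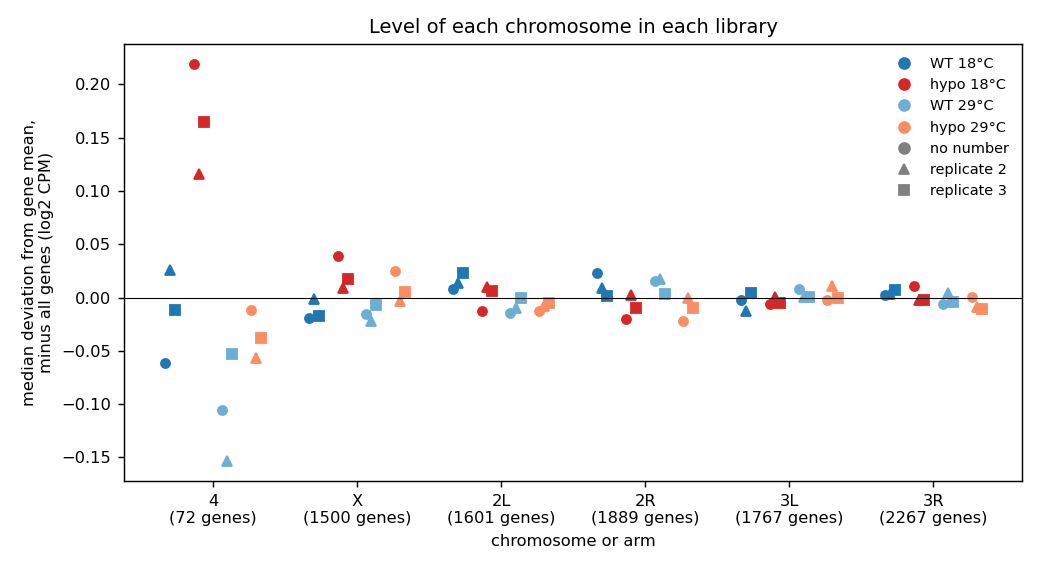
Median deviation of the genes of each chromosome or arm from their own mean, minus the median over all genes (y axis, log2 CPM), in each of the 12 libraries (points, coloured by group, with marker shape for the library number). Chromosome 4 runs from -0.15 to 0.22, with the 3 hypomorph libraries at 18°C at the top, and the other arms lie between -0.02 and 0.04.

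The second question was how the 72 genes differed between 18°C and 29°C in each strain. In WT, 18 (25%) were higher at 18°C and 8 (11.1%) were lower, against 17.3% and 16.1% of all genes (26 together, 33.4% of all genes), with a median of 0.07 against -0.01 and 42 values above 0 (48.9% of all genes). Without the unnumbered WT library at 18°C the counts in WT were 16 and 5 (15.7% and 13.5% of all genes), and in the 8 numbered libraries 16 and 4 (14.0% and 11.8%). In the hypomorph, 27 (37.5%) were higher and 6 (8.33%) lower, against 16.6% and 15.6% (33 together, 32.2% of all genes), with a median of 0.22 against 0.01 and 55 values above 0 (51.3% of all genes). Without the unnumbered hypomorph library at 18°C the counts in the hypomorph were 22 and 6 (13.4% and 13.3% of all genes), and the median of the 72 minus that of all genes was 0.18, in place of 0.21. The study's rule was passed by CG33978, ey and Gat in WT (7.33% of all genes) and by fd102C in the hypomorph (6.16%), which did not pass the adjusted test there (1.05, adjusted p = 0.0806). All WT libraries at 18°C were above those at 29°C in 25 genes and below in 13 (22.8% and 22.1% of all genes), and in the hypomorph in 37 and 8 genes (23.3% and 22.1%). The hypomorph groups at 18°C are the same libraries as in the strain comparison, so these counts are not independent of it.

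Gat had the largest difference in the hypomorph among the genes that were higher at 18°C in both strains. This transporter, which clears GABA into glia, had 99.5, 94.7 and 90.9 CPM at 18°C and 43.9, 40.3 and 52.4 CPM at 29°C in WT (1.06, SE 0.09, adjusted p = 2.87e-07, edgeR's quasi-likelihood test). In the hypomorph it had 106, 101 and 103 CPM against 57.6, 55.2 and 55.5 CPM (0.88, SE 0.08, adjusted p = 1.6e-06). The temperatures did not overlap in either strain. The 4 glia markers (repo, Eaat1, Gs2, nrv2) were all higher at 18°C too, summing to 1480 to 1602 against 1146 to 1198 CPM in WT and 1606 to 1750 against 1241 to 1273 CPM in the hypomorph, and their part in the Gat difference was not tested.

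PMCA, the calcium pump of the plasma membrane, had 197, 194 and 208 CPM at 18°C and 123, 119 and 126 CPM at 29°C in WT (0.70, SE 0.06, adjusted p = 3.65e-07). In the hypomorph it had 223, 213 and 217 CPM against 136, 128 and 125 CPM (0.75, SE 0.06, adjusted p = 2.1e-07). The calmodulin-dependent kinases were also higher at 18°C, CaMKI by 0.60 in WT and 0.44 in the hypomorph (adjusted p = 3.91e-05 and 0.000612) and CaMKII by 0.27 and 0.37 (adjusted p = 0.0245 and 0.00394). PMCA and CG32850 share exon bases on opposite strands. CG32850 was likewise higher at 18°C, by 0.50 and 0.55 (adjusted p = 0.000242 and 0.000114).

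CG11155, Pur-alpha and ci were also higher at 18°C in both strains. CG11155 had 97.3, 92.1 and 89.6 CPM against 55.0, 45.4 and 55.6 CPM in WT (0.84, SE 0.09, adjusted p = 5.88e-06) and rose by 0.72 in the hypomorph (adjusted p = 2.11e-05). Pur-alpha, a single-stranded nucleic acid binding protein, had 63.6, 63.1 and 74.6 CPM against 38.6, 38.0 and 53.5 CPM in WT (0.63, adjusted p = 0.000675), and its value in the hypomorph was 0.67 (adjusted p = 0.000325). The Hedgehog factor ci had 19.7, 20.8 and 18.8 CPM against 11.7, 12.9 and 12.3 CPM in WT (0.68, adjusted p = 0.000516) and 0.61 in the hypomorph (adjusted p = 0.00122). The temperatures did not overlap in any of the 3 genes in WT.

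Some passed in 1 strain alone. ey had 14.5, 10.03 and 11.3 CPM at 18°C and 7.51, 5.07 and 4.69 CPM at 29°C in WT (1.06, SE 0.21, adjusted p = 0.00132) and did not pass in the hypomorph (0.48, adjusted p = 0.0886). Sox102F, a SoxD-type factor, had 0.56 in WT (adjusted p = 0.00188) and 0.26 in the hypomorph (adjusted p = 0.1). Conversely pan had 0.63 in the hypomorph (adjusted p = 0.000711) and 0.20 in WT (adjusted p = 0.219), and Slip1 had 0.65 (adjusted p = 0.00138) and -0.01 (adjusted p = 0.974). CG1909 had 0.51 in the hypomorph (adjusted p = 0.000777) and 0.20 in WT (adjusted p = 0.14). For none of these 5 did the difference between the strains pass its own test. The kinesin Kif3C (0.70, adjusted p = 0.0363) and the GTPase regulator RhoGAP102A (-0.87, adjusted p = 0.0136) passed in the hypomorph with low levels of 5.62 to 16 and 1.75 to 5.96 CPM over the 12 libraries, and each lost the call without a single library: Kif3C without any of 4 libraries, such as the unnumbered hypomorph library at 18°C (adjusted p = 0.129), and RhoGAP102A without replicate 3 of the hypomorph at 18°C (adjusted p = 0.074) or at 29°C (adjusted p = 0.0501).

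A smaller set was lower at 18°C in both strains: CG11077, CG31997, yellow-h, mav and CG1674. CG11077 (Mpv17, named after a mitochondrial inner membrane protein of mammals) had 72.3, 60.4 and 68.4 CPM at 18°C and 102, 103 and 108 CPM at 29°C in WT (-0.63, SE 0.09, adjusted p = 8.55e-05), and 63.6, 75.6 and 60.1 CPM against 101, 109 and 117 CPM in the hypomorph (-0.71, SE 0.09, adjusted p = 2.53e-05). mav was lower at 18°C in WT (-0.50, adjusted p = 0.00227) and in the hypomorph (-0.43, adjusted p = 0.00354), so that it was highest in the hypomorph at 29°C and lowest in WT at 18°C. The pigmentation-family gene yellow-h had -0.57 and -0.59 (adjusted p = 0.00266 and 0.00155), and CG31997 had -0.59 and -0.48 (adjusted p = 1.67e-05 and 0.000112).

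**Figure D5:**
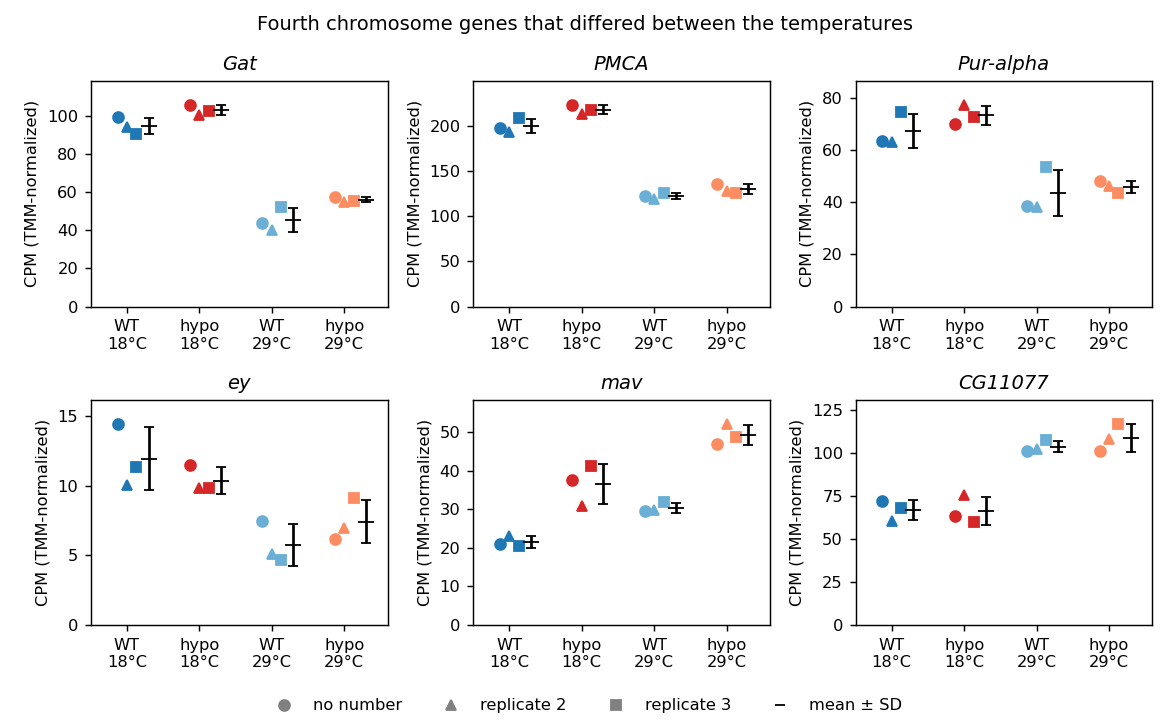
Level in CPM (y axis, from 0, linear) of Gat, PMCA, Pur-alpha, ey, mav and CG11077 in each library by strain and temperature (x axis). Points are libraries, with marker shape for the library number, and bars are the mean and SD of 3 libraries. Gat is at 90.9 to 106 CPM in the 6 libraries at 18°C and at 40.3 to 57.6 CPM at 29°C, and mav and CG11077 are higher at 29°C within each strain.

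bt, which encodes projectin, a giant protein of muscle, was higher at 18°C in WT, with 109, 107 and 136 CPM against 76.6, 73.9 and 73.6 CPM (0.65, SE 0.10, adjusted p = 8.01e-05), and in the hypomorph (0.34, adjusted p = 0.0122). The muscle markers (Mhc, Act88F, up, Mlc2) summed to 5044 to 5942 CPM at 18°C and 3238 to 3569 CPM at 29°C in WT, and to 4461 to 4859 and 3809 to 4427 CPM in the hypomorph. Their part in the bt difference was not tested. The low gene CG33978 had the largest value of any of the 72 in WT, with 10.96, 15.3 and 14.8 CPM against 5.63, 5.76 and 6.01 CPM (1.25, SE 0.18, adjusted p = 6.4e-05), and 0.62 in the hypomorph (adjusted p = 0.012), where the call was lost without replicate 2 at 18°C (adjusted p = 0.0532) or replicate 3 at 29°C (adjusted p = 0.0587).

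In all, 19 of the 72 genes passed in both strains, as did 2009 of the 9553 genes tested. Each of the 19 had the same direction in both, as did 1980 of the 2009, and 14 of the 19 were higher at 18°C. A further 7 passed in WT alone and 14 in the hypomorph alone (1181 and 1066 of the 9553). The values had the same sign in 53 of the 72 genes (73.6%, against 75.9% of all genes), with a Pearson's r of 0.76 and a Spearman's rho of 0.74, against 0.66 and 0.68 over all genes. Along the chromosome the first, middle and last 24 genes held 4, 9 and 5 of the 18 that were higher in WT. In the hypomorph they held 7, 11 and 9 of the 27. The longest run of neighbours above 0 in the hypomorph was 17 genes, from Gat to PlexA. With 55 of the 72 values above 0 there, long runs can arise in any order, and position was not tested.

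The difference between the strains in their response to temperature was tested directly. By edgeR's quasi-likelihood test none of the 72 responded more strongly toward 18°C in the hypomorph, and 1, Rfabg, responded more strongly in WT, against 0.639% and 1.69% of all genes (2.32% together). The study's rule was passed by none (2.52% of all genes). At an unadjusted p under 0.05, 10 of the 72 passed, against 13.9% of all genes. By adjusted p DESeq2 also called 1, against 3.78% of all genes it tested. Rfabg was 0.29 higher at 18°C than at 29°C in WT (adjusted p = 0.00122) and -0.12 in the hypomorph (adjusted p = 0.121), a difference of -0.42 (SE 0.08, adjusted p = 0.012). Without the unnumbered hypomorph library at 18°C the difference was -0.35, the smallest of the 12 fits that left out 1 library, all of which passed (highest adjusted p = 0.0409). In the 8 numbered libraries alone it was -0.34 and did not pass (adjusted p = 0.0939, and 0.0711 with the replicate block). All 5 fat body markers passed the same test in the same direction, and their part in the Rfabg difference was not tested. The median over the 72 was 0.11, against 0.02 for all genes and 0.01 to 0.03 on the other arms, and 50 of the 72 were above 0 (52.3% of all genes). So the larger number of members with a strain difference at 18°C than at 29°C is a difference in counts, and no member but Rfabg showed a change between the temperatures that passed its own test.

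Of the factors that act on the fourth chromosome or on heterochromatin, 14 of the 16 looked for could be tested. Pof was at 6.14, 7.48 and 6.4 CPM in WT and 5.85, 6.84 and 7.24 CPM in the hypomorph at 18°C (log2 fold change 0.00, SE 0.23, adjusted p = 0.994), and egg had 0.37 (adjusted p = 0.163) and HP1a 0.21 (adjusted p = 0.0535). Of the 14 only HP1b passed at 18°C, higher in the hypomorph (0.39, adjusted p = 0.0296), where 11.6% of all genes were higher. Of the 14 values at 18°C, 12 were above 0 (51.4% of all genes), some of them barely, such as Pof at 0.00 and HP5 and HP1c at 0.04. The largest was 1.03 for Lhr, a gene at 0.438 to 3.31 CPM in the libraries at 18°C. The median of the 14 was 0.13, against 0.15 for the 72 and 0.01 for all genes. Whether these factors had a part in the values of the 72 genes was not tested. At 29°C none of the 14 passed, and 8 were above 0 (49.5% of all genes), with a median of 0.04. Between the temperatures none was higher at 18°C, and 5 were lower in WT (egg, HP1a, HP4, HP1c and Lhr) and 3 in the hypomorph (HP1a, HP4 and HP1c), where 16.1% and 15.6% of all genes were lower. Pof passed in none of the 5 comparisons.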

How the data were processed

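Heads of WT and ADAR hypomorph flies at 18°C or 29°C were read in 4 groups of 3 libraries. The authors aligned the 3' reads to the fly genome (dm3) with TopHat, counted reads per gene with ESAT and deposited 1 table of whole-number counts with no normalization. The 4 columns that match no sample in the labels were not used. In each group 1 column carries no replicate number and served as a further replicate. Nothing states that libraries came from separate cultures of flies, so p-values measure the spread between these libraries. Libraries of a group differed by more than sampling noise (chi-square per degree of freedom 3.22 to 8.01).

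The counts were fitted with edgeR 4.0.16 in R 4.3.3: filterByExpr (minimum count 10, 9553 genes kept of 14611 with a count), TMM scaling, a quasi-likelihood model of the 4 group means over 12 libraries, and Benjamini-Hochberg adjustment over the 9553 genes. The biological coefficient of variation was 12.9%. Strain effects are hypomorph over WT and temperature effects 18°C over 29°C. A call is an adjusted p under 0.05, and the study's rule, a log2 fold change over 1 with an unadjusted p under 0.05, was run as an alternative. No exact permutation test was used, since 3 libraries against 3 cannot give a p below 0.1.

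Named genes are members called with a log2 fold change of 0.5 or more in either direction, at most 15 per comparison, members of the 6 role lists, and others named for their calls or partners after their values were seen. The members, role lists, marker lists and Cyp6a17 and beat-Ib were chosen with earlier results of these data known. Markers of hemocytes (Hml, NimC1) summed to 86.4 to 95.8 CPM in WT and 46.1 to 50.2 CPM in the hypomorph at 18°C, those of gut (Jon65Aiii, LysB, Jon99Ci) to 0.249 to 358.1 CPM over the 12 libraries, and those of germ line (vas, nos, osk, bam) to at most 0.832 CPM.

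Release 6 annotation, another build, served only for current names, gene order and shared exons. Its symbol differs for 10 of the 72 genes. No coordinates or promoters were used here. The models were tested on simulated data. Alternatives were DESeq2 1.42.0, DESeq2 size factors, total counts, other filters, a replicate block, 2-group fits and leaving out each library. Figures used Python 3.11.15 with matplotlib 3.10.9.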

Additional observations from a re-analysis of the deposited data

Results flagged for a closer look

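Rfabg was the only one of the 72 genes whose response to temperature differed between the strains, with a difference of -0.42 on the log2 scale (hypomorph minus WT, adjusted p = 0.012 by edgeR's quasi-likelihood test over 12 libraries). Its levels were 2877 to 3076 CPM at 18°C and 2400 to 2495 CPM at 29°C in WT, and 1407 to 1665 and 1658 to 1737 CPM in the hypomorph. In the 8 numbered libraries the difference was -0.34 and did not pass (adjusted p = 0.0939 without and 0.0711 with the replicate number as a block).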

How the results depend on the processing

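For the 43 named gene and comparison pairs, 837 of 858 alternative fits kept the call, 21 lost it and none turned the direction, and 36 pairs kept it in every alternative. The study's rule of a log2 fold change over 1 with an unadjusted p under 0.05 called 1, 0, 3, 1 and 0 of the 72 genes (strain at 18°C, strain at 29°C, temperature in WT, temperature in the hypomorph, difference), against 25, 10, 26, 33 and 1 by adjusted p. For strain at 18°C DESeq2 called 16 higher and 4 lower (9.41% and 14.8% of all genes). With DESeq2 size factors in edgeR these were 17 and 4 (10.6% and 15.8%). Total-count scaling moved the median of all genes to 0.20 for the strain effect at 18°C, 0.20 for temperature in the hypomorph and 0.15 for the difference. It called 41 (40 higher and 1 lower), 50 and 2 genes, where 35.7% (27.6% higher and 8.15% lower), 40.2% and 3.06% of all genes were called. The medians of the 72 minus those of all genes were 0.14, 0.21 and 0.09. Scaling shifts all genes of a comparison by nearly the same amount, so these relative medians could hardly move and are no check. Without a filter the relative median for temperature in WT was 0.14, against 0.08.

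The replicate numbers were not taken to pair the libraries, since no label says what a number shares and each comparison has only 2 numbered pairs. Deviations of same-numbered libraries correlated at -0.06 to 0.23 and those of other pairs at -0.30 to 0.12. For strain at 29°C both same-numbered pairs were at 0.23 and the others at -0.30 and -0.15. In the 8 numbered libraries the replicate block called 9, 6 and 0 genes (strain at 18°C, strain at 29°C, difference, with 16.6%, 12.7% and 0.798% of all genes), and the same libraries without the block 11, 6 and 0 (17.3%, 12.8% and 0.715%), so the lower counts came mostly with the loss of 4 libraries. For strain at 18°C, 7 were higher and 2 lower with the block (6.69% and 9.87% of all genes). Without the block 9 were higher and 2 lower (6.99% and 10.3%). Under the block dati (adjusted p = 0.15), Asator (0.0546) and sv at 29°C (0.261) lost their calls. With any single library left out, 16 to 25 genes were called for strain at 18°C, where 21.0% to 25.7% of all genes were called. The 16 came without the unnumbered hypomorph library at 18°C. For strain at 29°C 6 to 10 were called, where 14.3% to 19.7% of all genes were called. The relative medians were 0.14 to 0.20 for strain at 18°C and 0.0443 to 0.136 for temperature in WT. Adar at 18°C lost its call in 8 of 12 such fits (adjusted p up to 0.191), with total counts (0.298) and with the 2 groups alone (0.0579).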
